A study of Rattus norvegicus with 3 samples.

Results

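The genes described here write DNA methylation or repress chromatin through Polycomb group proteins and histone deacetylases, and were chosen by name. They are Dnmt1, Dnmt3a, Dnmt3b, Uhrf1, Hells, Ezh2, Suz12, Eed, Hdac1 and Hdac2. Of these 10 genes, 7 had a probe that could be named, with 10 probes in all, out of 13301 named genes and 16745 named probes on the array. The remaining 3, Dnmt3b, Uhrf1 and Suz12, have no expression value here. Their RNA was measured in 3 rat cell types, each on 1 whole rat genome array of Agilent. COS1NR is an osteosarcoma line and MFH1NR is a line of malignant fibrous histiocytoma (MFH), a sarcoma that is now usually called undifferentiated pleomorphic sarcoma. Both lines were established from tumors that the carcinogen 4-HAQO had induced in F344 rats, and per the methods of the study both carry a p53 mutation. Mesenchymal stem cells (MSCs) from the femur bone marrow of F344 rats, grown as adherent cells on plastic and not sorted by surface markers, were the reference. The age of the animals, passage numbers and the number of donor rats are not given in the sources used here.

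With 1 array per cell type there was no replicate, so no difference could be tested and no p-value is given. Precision is limited by the number of arrays. The MSC array was on a different slide from the arrays of COS1NR and MFH1NR. Per the methods of the study the MSCs were also grown with more fetal bovine serum than the lines. In each ratio over MSCs the slide, the serum and the cells thus cannot be told apart. Between 56.6% and 59.7% of the spots of an array were well above background. Levels are given as a percentage of the 75th percentile of the intensities of the same array, which was 589 for MSCs, 774 for COS1NR and 994 for MFH1NR. A ratio is a quotient of 2 such levels of the same probe. Its error is the one that the image software attaches to each spot, about 0.20 on the log2 scale for bright probes, and it covers neither the culture nor the labeling. Where 1 side was not well above background, the lowest intensity with that call on the array stands in for it and the ratio is a bound. A second probe of the same gene gave a ratio that differed by a median of 0.28 (COS1NR over MSCs) and 0.31 (MFH1NR over MSCs) on the log2 scale over 1895 genes. The 90th percentile of that difference was 0.91 and 0.99. Dnmt3a, Ezh2, Eed and Hdac1 have 1 probe each. The values are of bulk RNA, in which fewer cells of a type and less RNA per cell cannot be told apart.

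In mammals, cytosines before a guanine are methylated by de novo enzymes (Dnmt3a, Dnmt3b) and the mark is copied onto the new strand after each round of replication by Dnmt1, which Uhrf1 brings to half-methylated sites. Hells is a chromatin remodeler of the SNF2 family that is needed for normal DNA methylation of repeats. Polycomb repressive complex 2 (PRC2), with the core subunits Ezh2, Suz12 and Eed, methylates a lysine of histone H3, and PRC1 complexes act on the same chromatin. Hdac1 and Hdac2 are class I deacetylases that remove acetyl groups from histones as part of several corepressor complexes. Dnmt1, Uhrf1, Hells and Ezh2 are known targets of E2F factors, which act as cells enter the S phase.

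The promoters of 9 of the 10 genes were at hand from RefSeq (build GRCr8), each with 250 bases before and 50 bases after an annotated start of transcription. Spellings of the E2F element (TTTCCCGC, TTTGGCGC, TTTCGCGC and TTTGCCGC), some of which can overlap each other, were searched on both strands. At least 1 of them occurred in 2.14% of 33469 rat promoters of the same length. Among the 7 genes with a probe they occurred in Dnmt1, Hells and Ezh2 and in none of Dnmt3a, Eed, Hdac1 and Hdac2. They also occurred in Suz12 and in 1 of 3 promoters of Uhrf1. The spellings were chosen with the expression values known, a match is a description of the letters in the window, and binding was not measured. The stretches below are shown because Dnmt1, Hells and Ezh2 were the 3 genes at least 2-fold higher in both sarcoma lines, and Eed, Hdac1 and Hdac2 those within 2-fold in both. They read 5′ to 3′ on the strand of the gene, and capitals mark the element. In Dnmt1 (chr8:27762799-27762826, minus strand) and Ezh2 (chr4:77687157-77687184, minus strand) it lies just after the start, within the transcribed sequence, so 28 bases around it are given. In Hells (chr1:246114029-246114128, plus strand) it lies at -29 to -22 from the start, in the 100 bases before it. The same 100 bases are given for Eed (chr1:153307501-153307600, minus strand), Hdac1 (chr5:147165388-147165487, minus strand) and Hdac2 (chr20:42103027-42103126, plus strand).
Dnmt1: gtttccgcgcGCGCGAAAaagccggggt
Ezh2: ggctgctgcgTTTGGCGCtcggtccggt
Hells: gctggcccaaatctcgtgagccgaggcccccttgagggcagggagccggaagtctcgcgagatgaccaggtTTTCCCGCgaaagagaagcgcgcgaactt
Eed: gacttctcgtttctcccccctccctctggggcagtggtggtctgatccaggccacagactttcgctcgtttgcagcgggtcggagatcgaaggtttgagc
Hdac1: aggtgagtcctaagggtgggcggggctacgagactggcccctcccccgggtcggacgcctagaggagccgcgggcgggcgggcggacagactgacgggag
Hdac2: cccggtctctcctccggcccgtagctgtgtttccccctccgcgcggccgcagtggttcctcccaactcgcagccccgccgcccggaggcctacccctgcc

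The Dnmt1 element is written on the opposite strand, at 26 to 33 bases after the start, and that of Ezh2 lies at 10 to 17. A CCAAT box, the letters CCAAT on either strand, occurred in the windows of Dnmt1, Ezh2, Eed, Hdac1, Suz12 and Uhrf1 and in 37.5% of all promoters. The letters TTTGAA of a cell cycle homology region occurred in 18.3% of all promoters, in Suz12 and in none of the 7 genes with a probe. The promoter windows of the 9 genes held between 8 and 38 CpG dinucleotides, against a median of 7 over all promoters.

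Dnmt1 was higher in both sarcoma lines than in MSCs and was highest in MFH1NR. Its brighter probe was at 81.0% of the 75th percentile in MSCs, 165% in COS1NR and 255% in MFH1NR. The dimmer probe was at 14.3%, 29.7% and 46.1%, in the same order of arrays. The log2 ratio over MSCs was 1.03 with a spot error of 0.20 in COS1NR (2.04-fold), and 1.65 in MFH1NR (3.15-fold). The dimmer probe gave 1.06 and 1.69, so the 2 probes of this maintenance enzyme differed by less than the spot error. The value in COS1NR lay close to the 2-fold threshold and was below it under quantile normalization (0.995), normexp (0.89) and spike-in scaling (0.76).

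Dnmt3a, the only de novo enzyme with a value, was dim. Its single probe had an intensity of 13.8 in MSCs and 27.7 in COS1NR, neither well above background, and of 79.2 in MFH1NR, where it was. No ratio could be formed between COS1NR and MSCs. MFH1NR was at least 2.62-fold above MSCs and at least 2.10-fold above COS1NR. The gene was kept through MFH1NR alone, so its higher value there follows from the filter, and under normexp the log2 differences were 0.27 and 0.44.

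Hells differed most from MSCs among the 6 genes measured on all 3 arrays. Its brighter probe was at 18.9% of the 75th percentile in MSCs, 106% in COS1NR and 180% in MFH1NR. The log2 ratio over MSCs was 2.48 with a spot error of 0.21 in COS1NR (5.59-fold) and 3.25 in MFH1NR (9.50-fold), above 96.7% and 98.2% of all genes with a ratio. The dimmer probe was not well above background in MSCs (intensity 4.49) and was so in COS1NR (59.2) and MFH1NR (151). It gave bounds of at least 2.52-fold and at least 4.99-fold, in the direction of the brighter probe. The order MSCs, COS1NR, MFH1NR held for the brighter probe of Hells and both probes of Dnmt1. The dimmer Hells probe, not above background in MSCs, could give only an upward bound over them.

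Ezh2, the catalytic subunit of PRC2, was also higher in both lines, and here the highest level was in COS1NR. Its single probe was at 56.9% of the 75th percentile in MSCs, 281% in COS1NR and 182% in MFH1NR. The log2 ratio over MSCs was 2.31 with a spot error of 0.20 in COS1NR (4.95-fold) and 1.68 in MFH1NR (3.20-fold). These exceeded the ratios of 96.1% and 90.9% of all genes. The higher level of Ezh2 in COS1NR than in MFH1NR (1.54-fold) did not hold under spike-in scaling, where the log2 ratio of MFH1NR over COS1NR was 0.16 instead of -0.63.

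Eed, the subunit of PRC2 that binds the methylated histone, stayed within 2-fold on all 3 arrays. It was at 158% of the 75th percentile in MSCs, 159% in COS1NR and 211% in MFH1NR. The log2 ratio over MSCs was 0.01 in COS1NR, a value that took the opposite sign under 3 alternatives and lay between -0.26 and 0.41 over all of them. In MFH1NR it was 0.42, about 2 spot errors of 0.20 from zero, and 1.17 without scaling. The 2 measured core subunits of PRC2 thus had unlike ratios in COS1NR, 2.31 for Ezh2 and 0.01 for Eed.

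Hdac1 was the gene with the lowest mean ratio of the 6 with both ratios and was lower in both lines, except that its ratio in MFH1NR was above zero without scaling (0.22). It was at 761% of the 75th percentile in MSCs, 487% in COS1NR and 526% in MFH1NR. The log2 ratio over MSCs was -0.64 in COS1NR and -0.53 in MFH1NR, each with a spot error of 0.20. Hdac2 was lower by a like amount, with -0.54 and -0.59 by its brighter probe, and the value in MFH1NR was again above zero without scaling (0.17). Its brighter probe was at 2725% in MSCs, 1870% in COS1NR and 1817% in MFH1NR. Its dimmer probe gave -0.56 in COS1NR and -0.49 in MFH1NR. Neither deacetylase reached a 2-fold difference in any of 3 comparisons.

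**Figure D1:**
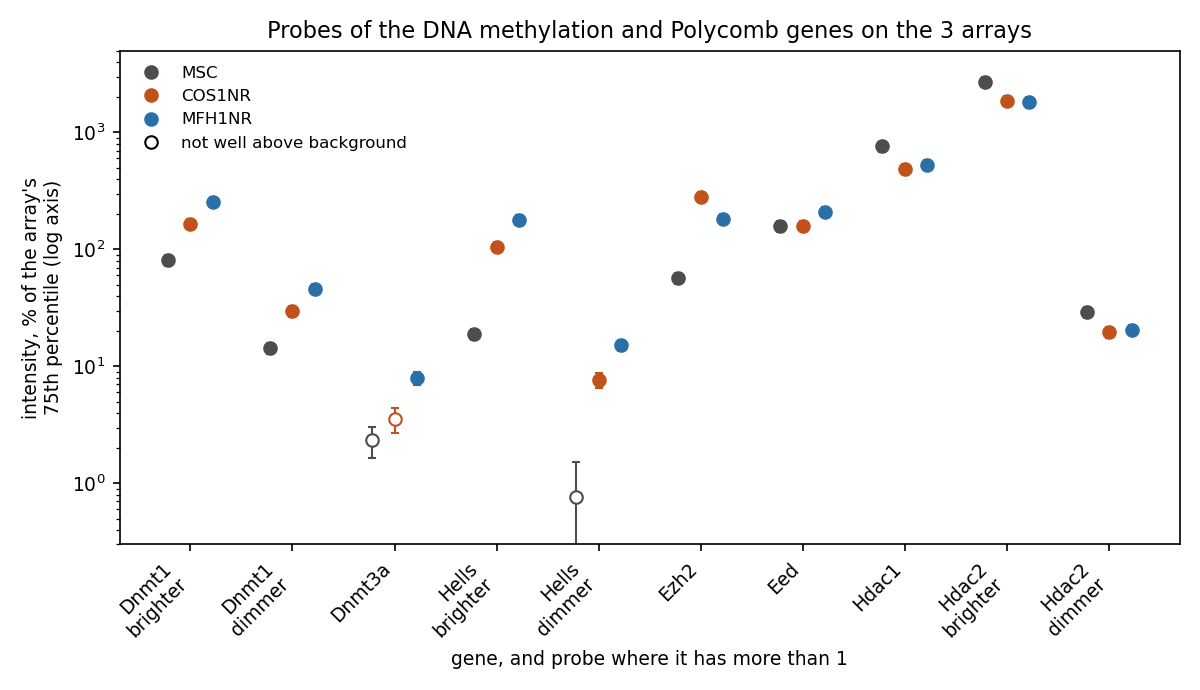
Level of each of the 10 probes on the 3 arrays, as a percentage of the 75th percentile of the array, on a log axis. Bars are the software's error of 1 spot, open circles are spots not well above background, and the lower bar of the dimmer Hells probe in MSCs runs off the axis. Dnmt1 by both probes and Hells by its brighter probe step up from MSCs to COS1NR to MFH1NR. The dimmer Hells probe is not well above background in MSCs. Ezh2 is highest in COS1NR, and Hdac1 and Hdac2 are highest in MSCs. Heights of different probes are not comparable.

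Dnmt1, Hells and Ezh2 thus passed 2-fold over MSCs in both lines. Of 9454 genes with both ratios, 11.4% were at least 2-fold higher in both. In COS1NR these 3 were the genes at least 2-fold higher among the 6 with a ratio, where 20.8% of 9641 genes with a ratio were. In MFH1NR they were again 3 of the 6, where 19.3% of 9825 genes were. Dnmt3a also passed 2-fold in MFH1NR by its bound, but is not set against that share, since it was kept through that array alone. None of the 6 was at least 2-fold lower in either line, against 20.1% of all genes in COS1NR and 21.6% in MFH1NR. Those shares include genes whose ratio is a bound. The 6 were well above background on all 3 arrays, as were 7936 genes. Of these, 20.7% were higher and 15.1% lower in COS1NR, and 18.9% and 16.2% in MFH1NR. The split over all genes depended on the scaling. Without scaling 33.2% were higher and 15.1% lower in COS1NR, and 42.1% and 13.2% in MFH1NR. With spike-in scaling 14.6% and 24.9% were so in COS1NR, and 34.0% and 15.2% in MFH1NR. The median log2 ratio was 0.52 in COS1NR over 6 genes and 1.04 in MFH1NR over the same 6, all measured on both sides, while the median over all genes was 0.11 and 0.02. With Dnmt3a at its bound the median in MFH1NR was 1.39, and it was 0.36 under normexp, 1.91 with spike-in scaling and 2.15 without scaling. The median in COS1NR was 0.25 with spike-in scaling and 0.91 without scaling. With a floor at the highest background limit of the arrays, which gives Dnmt3a a ratio, it was 0.01 over 7 genes, where the median over all genes was 0.05. So few genes allow no statement on the group as such, and the values of Dnmt1, Hells and Ezh2 on one side and of Hdac1 and Hdac2 on the other were far apart.

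**Figure D2:**
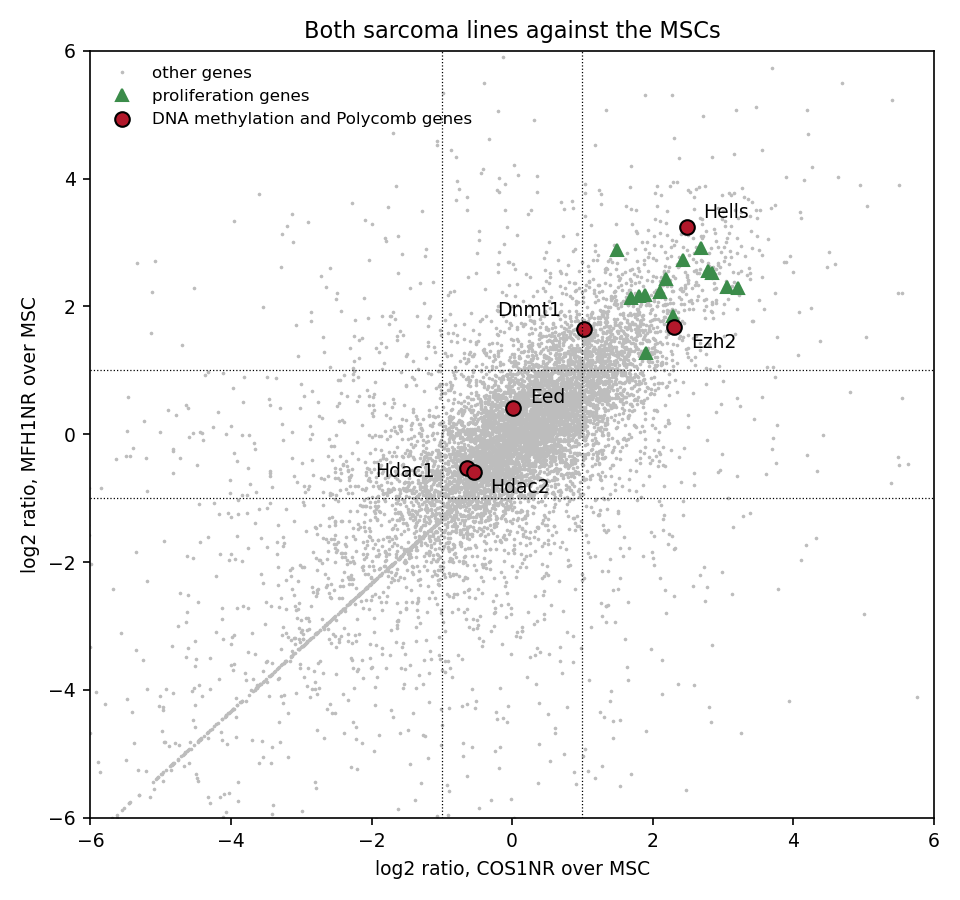
Log2 ratio over MSCs of COS1NR (horizontal axis) and MFH1NR (vertical axis) for 9454 genes with both ratios, of which 261 lie beyond the axes. Circles are the 6 genes measured in both, triangles 14 proliferation genes, and dotted lines mark 2-fold. Hells, Ezh2 and Dnmt1 lie in the upper right, Hells and Ezh2 among or beside the triangles, while Eed, Hdac1 and Hdac2 lie near the centre (Hdac1 and Hdac2 move above zero in MFH1NR without scaling). The thin diagonal line of points at the lower left consists of genes whose ratios are bounds in both lines.

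Genes of the dividing cell were higher in the same direction as Dnmt1, Hells and Ezh2. Of 18 proliferation markers, 14 had a usable probe, and all 14 were at least 2-fold higher in both lines, with medians of 2.24 (COS1NR) and 2.30 (MFH1NR) on the log2 scale. Their summed level, in units of the 75th percentile, was 47.5 for MSCs, 245 for COS1NR and 223 for MFH1NR. Birc5, an inhibitor of cell death that serves in mitosis, had log2 ratios of 2.69 and 2.92. Ccna2, the cyclin of the S and G2 phases, had 3.21 and 2.30, and the mitotic kinase Aurka had 2.85 and 2.53. Ccna2 was thus higher in COS1NR than in MFH1NR, as Ezh2 was, while Birc5 had the order of Dnmt1 and Hells. The part of proliferation in the ratios of Dnmt1, Hells and Ezh2 was not tested.

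RNA of genes that mark other cell types was also present in the MSC culture, and which cells it came from was not tested. Of 18 macrophage markers 17 had a usable probe, all 17 were well above background in MSCs, and 17 were at least 2-fold lower in both lines. Their summed level was 207 for MSCs, 13.1 for COS1NR and 5.39 for MFH1NR. Of the 17, 9 were still well above background in COS1NR and 8 in MFH1NR, among them Tyrobp in both, whereas Lyz2 and C1qa were not in either line. Of the 10 markers of MSCs all were well above background in the MSC culture, where 8 were at least 2-fold above COS1NR and 7 at least 2-fold above MFH1NR. Among 4 usable endothelial markers 3 were at least 2-fold lower in both lines, among them Kdr. Cdh5 was dim in MSCs (intensity 26.0), with log2 ratios of 0.50 in COS1NR and at most -0.55 in MFH1NR. Pecam1 and Tek were not well above background on any array, and Vwf and Egfl7 have no value here. Of 8 usable osteoblast markers 5 were at least 2-fold lower and none higher in COS1NR than in MSCs, and in MFH1NR 3 were lower and 2 higher. Of these 2, Sp7 was well above background in MFH1NR alone, so its direction follows from the filter. Ibsp and Bglap were at least 2-fold lower in both lines. The part of macrophage RNA in the ratios of the 7 genes was not tested.

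COS1NR and MFH1NR shared a slide and can be set against each other without the MSCs. The log2 ratio of MFH1NR over COS1NR was 0.62 for Dnmt1, 0.77 for Hells, 0.40 for Eed, 0.11 for Hdac1, -0.04 for Hdac2 and -0.63 for Ezh2, where that of Hdac2 turned above zero under 6 alternatives. The second probes gave 0.64 for Dnmt1, 0.99 for Hells and 0.06 for Hdac2. None of these 6 genes was at least 2-fold higher in MFH1NR, where 12.5% of 9337 genes were, and none was at least 2-fold lower, where 15.2% were. Over genes well above background on all 3 arrays, as these 6 were, the shares were 9.69% and 12.1%. Dnmt3a passed 2-fold by its bound of 1.07, which follows from its being kept through MFH1NR alone. With Dnmt3a included, the members at least 2-fold higher were 1 as reported, 2 without scaling and 4 with spike-in scaling, where Dnmt1 (1.42), Hells (1.56) and Eed (1.20) passed as well. The shares of all genes higher and lower were 19.9% and 10.2% without scaling and 35.2% and 7.18% with spike-in scaling. Dnmt1 and Hells thus differed from Ezh2 in the direction of the step between the lines, where the spot error was 0.20 for each, with the sign of Ezh2 turned under spike-in scaling.

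The wider pathways were described by 9 lists of 121 other genes, of which 71 had a usable probe. Of these, 22.5% were at least 2-fold above MSCs in COS1NR and 21.1% in MFH1NR, shares close to those over all genes. At least 2-fold lower were 11.3% in each line, against 20.1% and 21.6% of all genes. Over genes well above background on all 3 arrays it was 15.1% and 16.2%. The median log2 ratio was 0.42 in COS1NR and 0.36 in MFH1NR. Except Ehmt2, the genes named below as at least 2-fold apart in the same direction in both lines were the most extreme of their list. Those named as within 2-fold were picked after their values were seen.

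Of 10 accessory and reader genes of DNA methylation, Pcna was the single one at least 2-fold higher as reported, with log2 ratios of 1.40 and 1.63, while without scaling 4 were in COS1NR and 5 in MFH1NR. Pcna is the sliding clamp of replication to which Dnmt1 binds. The other 9, among them the methyl-CpG binding proteins Mbd1, Mbd2 and Mbd3, were within 2-fold of MSCs in both lines as reported. None of 7 usable genes of demethylation and base repair was at least 2-fold higher as reported. Between 0 and 2 were so under the other scalings. Tet1, Tet2, Tet3 and Mbd4 have no value here. Gadd45b, a stress response gene that has been linked to demethylation, had log2 ratios of -3.27 and -3.14, and the cytidine deaminase Apobec1 had -1.04 and -3.18. In COS1NR 2 genes of this list were at least 2-fold lower as reported, and 1 without scaling, with median scaling and with normexp. Of 7 genes that supply methyl donors, none passed 2-fold in the same direction in both lines as reported. In MFH1NR 1 was at least 2-fold higher as reported and 4 were without scaling. Ahcy, which clears the product that inhibits methyltransferases, had 0.75 and 1.06 and was named after its values were seen.

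Ezh1, the paralog of Ezh2, did not share its ratios, with log2 ratios of 0.57 in COS1NR and 0.00 in MFH1NR. The histone binding subunits Rbbp4 and Rbbp7 had ratios between -0.17 and 0.21. Of the accessory subunits Phf19 had 1.67 and 0.85 and Epop 0.996 and 1.17. These genes were named after their values were seen, since none of the 7 usable PRC2 accessory genes passed 2-fold in both lines as reported. Epop lay at the threshold in COS1NR, and the number of these genes at least 2-fold higher was 1 as reported and 2 without scaling in COS1NR, and in MFH1NR 1 as reported, 4 without scaling and 0 with normexp. Within PRC1, with 12 usable genes, the chromobox protein Cbx8 had 1.94 and 3.19, while Phc2, a subunit that polymerizes through its SAM domain, had -2.74 and -1.97. The catalytic subunit Ring1 had 0.58 and 0.34. Of the genes that oppose Polycomb, the histone demethylase Kdm6b had -3.49 and -3.87, and Bap1, which removes ubiquitin from histone H2A, had 1.11 and 1.17. With spike-in scaling no gene that opposes Polycomb was at least 2-fold higher in COS1NR.

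Among 7 other deacetylases Hdac11 had log2 ratios of 1.47 and 2.06, from a dim probe whose ratio in COS1NR was -0.07 under normexp, and the sirtuin Sirt7 had 1.27 and 1.14. In COS1NR the genes of this list at least 2-fold higher were 2 as reported, 3 without scaling and 1 with spike-in scaling. The class I members Hdac3 and Hdac8 were within 2-fold as reported, with 0.42 and 0.63 in COS1NR and -0.49 and -0.71 in MFH1NR. Of 11 usable subunits of deacetylase complexes, Rcor2 (1.66 and 2.27) and Dnttip1 (1.09 and 1.11) were at least 2-fold higher in both lines as reported. In COS1NR, whatever the ratio in MFH1NR, 3 genes of the list were at least 2-fold higher as reported and 1 with spike-in scaling. The list of heterochromatin genes had 4 of 7 usable genes at least 2-fold higher in both lines, where 11.4% of all genes were, with medians of 1.10 (COS1NR) and 1.12 (MFH1NR) on the log2 scale. They were the heterochromatin proteins Cbx5 (1.30 and 1.61) and Cbx3 (1.11 and 1.53), the histone methyltransferase Suv39h1 (1.27 and 1.03) and, named after its values were seen, Ehmt2 (1.10 and 1.12). Under spike-in scaling 1 of the 7 stayed at least 2-fold higher in COS1NR. Their direction was that of Dnmt1, Hells and Ezh2, and the lists were chosen with earlier results of these arrays known.

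**Figure D3:**
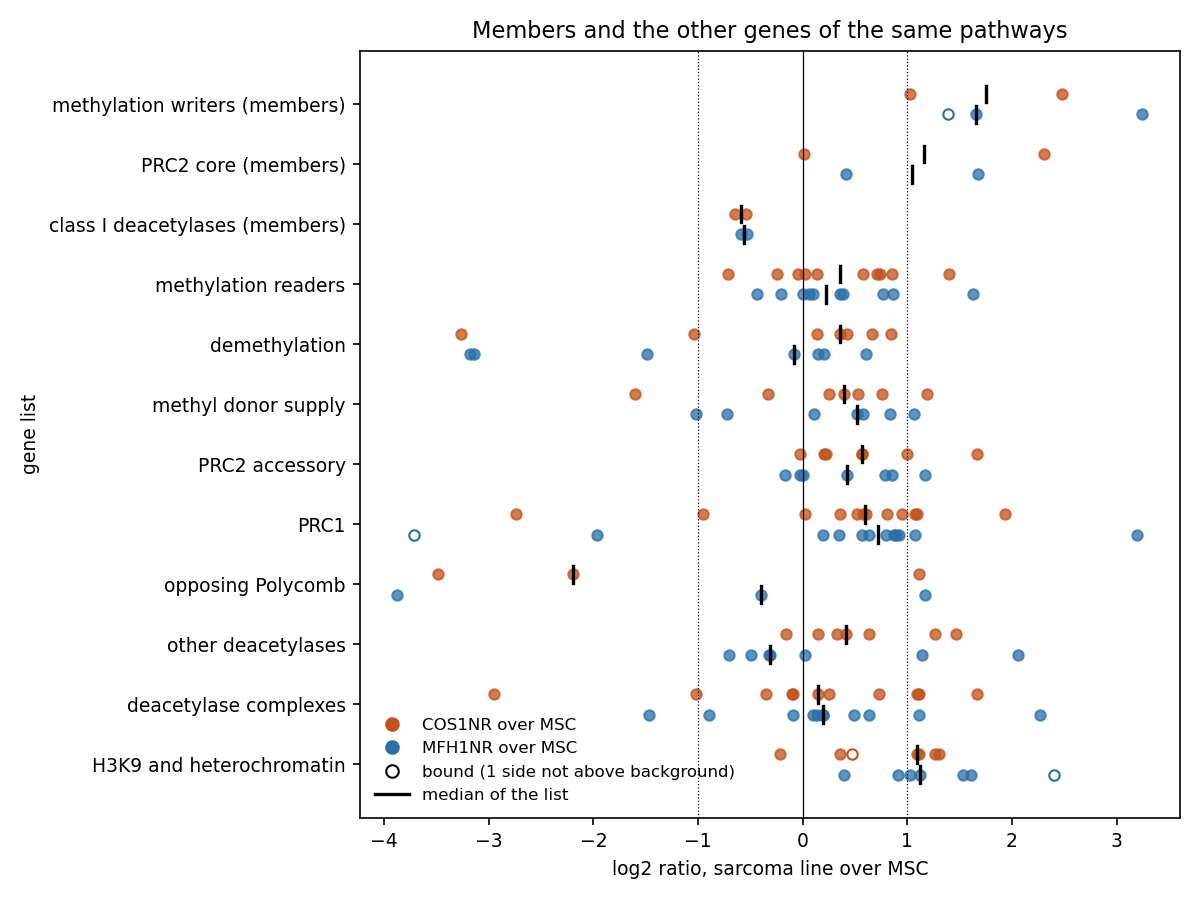
Log2 ratio over MSCs of the usable genes of each list, in COS1NR and MFH1NR. Black bars are list medians, open circles are bounds, and dotted lines mark 2-fold. The heterochromatin list has its median near 1.1 in both lines, Hdac1 and Hdac2 lie below zero (above zero in MFH1NR without scaling), and most other lists straddle zero with single genes far out, such as Cbx8, Phc2, Kdm6b and Gadd45b.

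The genes most like Hells in both ratios to MSCs, out of 7935 genes well above background on all 3 arrays, were Tacc3, Atp1b1 and Aspm, at Euclidean distances of 0.11, 0.12 and 0.13 on the log2 scale. In all 35 genes lay within 0.5 of Hells. Around Hdac1 lay 795 genes within that distance, the nearest being C5h1orf50 (0.0051), Sesn2 (0.0096) and Nup98 (0.011). These distances rest on 2 ratios that share the MSC array.

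Scaling moved the ratios of the 7 genes together with those of all genes, as the plot of the ratios under the processing alternatives shows. Without scaling the median over all genes was higher by 0.41 in COS1NR and by 0.78 in MFH1NR. The other scalings and normexp, 5 alternatives in all, could move every gene. Under these the log2 ratio of Hells over MSCs lay between 2.07 and 2.88 in COS1NR and between 2.80 and 4.00 in MFH1NR. That of Ezh2 lay between 2.04 and 2.70 in COS1NR and between 1.72 and 2.43 in MFH1NR. Dnmt1 lay between 0.76 and 1.42 in COS1NR, where 3 of the 5 values were below 2-fold, and between 1.48 and 2.41 in MFH1NR.

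**Figure D4:**
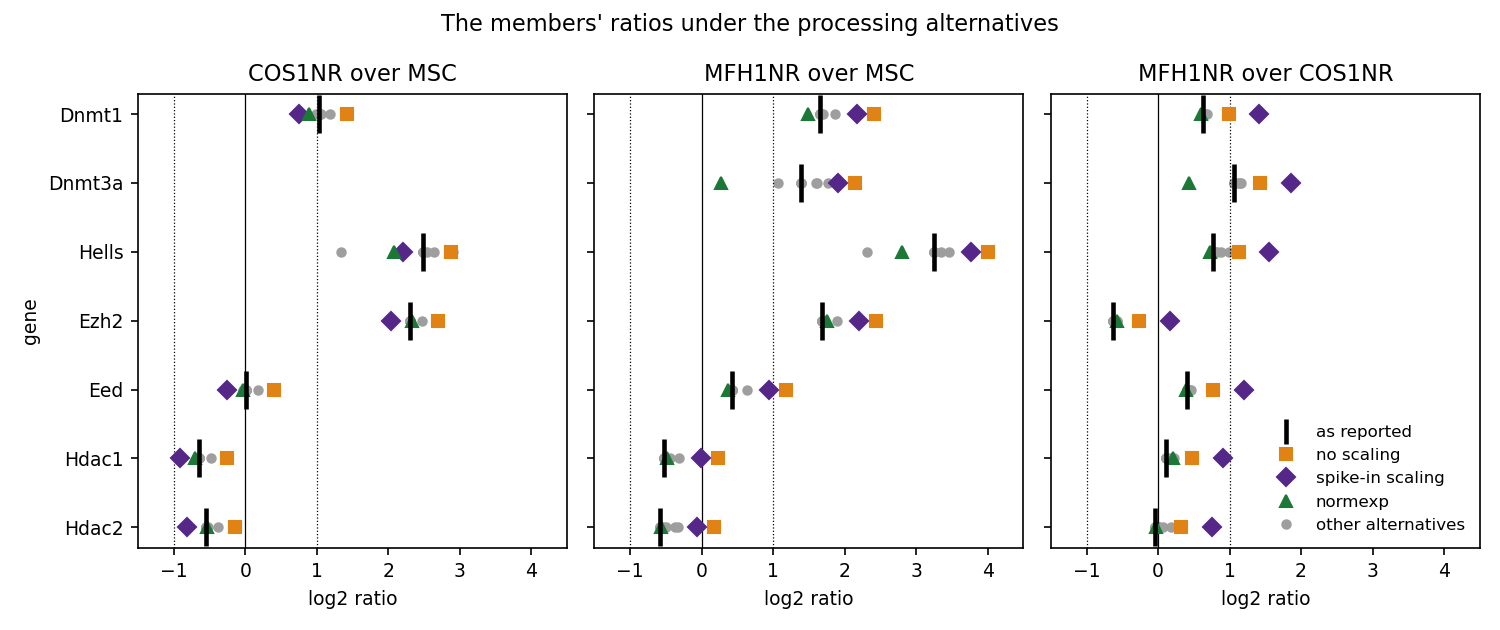
Log2 ratios of the 7 genes in the 3 comparisons, as reported (black ticks) and under the processing alternatives. Squares are without scaling, diamonds with spike-in scaling, triangles with normexp and small circles the rest. Hells and Ezh2 stay to the right of the 2-fold line over MSCs in both lines, Dnmt1 in COS1NR falls on both sides of it, and Hdac1 and Hdac2 in MFH1NR are above zero without scaling.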

How the data were processed

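The authors hybridized Cy3-labeled cRNA of MSCs, COS1NR and MFH1NR to 1 array each. The deposited scanner files hold 1-colour intensities by Agilent Feature Extraction, version 9.1 per the submitters' processing notes and 10.5.1.1 per the file headers, with the background subtracted and no scaling between arrays. The deposited series table equalled them on 45018 of 45018 spots of every array. The kits for RNA and labeling differ between the labels (FastTrack, Low RNA Input) and the methods (RNeasy, Quick Amp).

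Control spots and outlier spots (187 to 217 per array) were left out, spots of a probe averaged, and log2 intensities taken relative to the 75th percentile of the array. This left 40816 probes. RefSeq accessions of the array annotation (rn4) were named with a GRCr8 table, so probe positions are left out. The brightest probe stood for its gene, which was used if any of the 3 arrays had it well above background (10019 genes). No test was made, and genes at least 2-fold apart were counted. Members, lists, thresholds and motifs were chosen with earlier results of these data known.

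Named are all members, from each list up to 3 genes with the largest and up to 3 with the smallest mean log2 ratio among those at least 2-fold apart from MSCs in the same direction in both lines, Cdkn2a and Rhox5, and the 3 genes nearest to the members with the highest and the lowest mean. Counting was tested on simulated data. Tools were Python 3.11.15, numpy 2.4.6, pandas 2.3.3, matplotlib 3.10.9, R 4.3.3 and limma 3.58.1. Alternatives were other scalings, filters, probes, thresholds and background corrections.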

Additional observations from a re-analysis of the deposited data

Results flagged for a closer look

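The members, the pathway lists and the lists of genes that these marks can silence held 108 genes. Of these, 3 were at least 2-fold apart from MSCs in opposite directions in the 2 sarcoma lines. Over all 9454 genes with both ratios the share was 2.37%, so a count of 3 is about what other genes show. With 1 array per cell type the difference was not tested. Shmt2, a mitochondrial enzyme that feeds the folate cycle, had log2 ratios over MSCs of 1.19 for COS1NR and -1.02 for MFH1NR, and the latter was -0.26 without scaling. Igf2, an imprinted growth factor gene, had 1.51 in COS1NR and -2.42 in MFH1NR, and -1.66 in MFH1NR without scaling. Snrpn, an imprinted gene of RNA splicing, had -4.70 in COS1NR and 1.40 in MFH1NR.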

How the results depend on the processing

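Of 104 counts of members under 13 alternatives, 95 stayed within 1.5 times the count reported, and none of the members' ratios of at least 2-fold changed sign. The 95 include the counts from the deposited series table, which holds the same values and could not differ. They also include counts of 0 that stayed 0. A fall from 3 to 2 lies within that limit, as when Dnmt1 in COS1NR dropped below 2-fold. The number of members at least 2-fold higher in MFH1NR than in COS1NR was 1, and became 2 without scaling, 4 with scaling by 7 spike-in probes, 3 at a 1.5-fold threshold, and 0 at a 3-fold threshold, with genes well above background on all 3 arrays, and with normexp. Members lower by the threshold, 0 in each comparison, became 1 at 1.5-fold in COS1NR against MSCs, 1 at 1.5-fold in MFH1NR against MSCs and 1 at 1.5-fold in MFH1NR against COS1NR. Normexp used the median spot intensity with an offset of 50 and was added after the data were seen, since the planned correction on the mean spot intensity was not run for want of that column. The median over all genes shifted by 0.41 (COS1NR over MSCs), 0.78 (MFH1NR over MSCs) and 0.36 (MFH1NR over COS1NR) without scaling, by -0.27, 0.53 and 0.79 with spike-in scaling, and by 0.17, 0.22 and 0.06 with median scaling. Of the other pathway genes, 16 were at least 2-fold higher in COS1NR as reported, 27 without scaling, 20 with median scaling and 6 with spike-in scaling, and in MFH1NR 15, 37, 24 and 32. No paired analysis was possible because each cell type had 1 array. Where a probe is not well above background, as for Dnmt3a in MSCs and COS1NR and the dimmer Hells probe in MSCs, the ratio is a bound or missing.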

Other observations

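Genes that DNA methylation or Polycomb can silence, in some tissues or on 1 allele only, were measured on the same arrays. Their values are given without any link to the levels of the enzymes, which was not tested. Of 18 germline genes 7 had a usable probe. Rhox5, a homeobox gene of the reproductive tract, had intensities of 117 (MSCs), 7054 (COS1NR) and 54333 (MFH1NR), with log2 ratios over MSCs of 5.52 and 8.11. The meiosis gene Rec114 had 7.45 and 7.54. Piwil2, a gene of germline small RNAs, had at most -0.98 in COS1NR and 5.34 in MFH1NR. Sycp1, Mael, Taf7l and Tex101 were well above background in MFH1NR alone and were thus kept through that array, with Mael at least 6.81 above MSCs on the log2 scale. Another 7 germline genes were not well above background on any array. Sycp1, Mael, Taf7l, Tex101, Plagl1, Phlda2, Sgce, Piwil2, Hoxa2, Hoxb9, Hoxb13, Hoxc5, Hoxd13 and Cdkn2b were picked for naming after their values were seen.

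Of 12 usable imprinted genes, 4 were at least 2-fold lower in both lines, namely Ndn, H19, Igf2r and Plagl1, where 13.7% of all genes were. Others differed the other way or in 1 line, with Phlda2 at 4.24 in MFH1NR, and Sgce at most at -9.18 in MFH1NR and at -0.22 in COS1NR. Ndn had a log2 ratio of at most -8.53 in COS1NR and -8.26 in MFH1NR, H19 at most -8.09 and -7.54, and Igf2r -6.62 and -2.98. Of 9 usable Hox genes 5 were not well above background in MSCs and were kept through the sarcoma arrays alone, so their direction follows from the filter. Of the other 4, Hoxa7 (3.74 and 2.22), Hoxb7 (2.17 and 2.86) and Hoxc4 (1.62 and 3.57) were at least 2-fold higher in both lines. Over all genes 11.4% were. Hoxc5 had 0.92 and 0.04. Only 13 of the 38 Hox genes of the list had a probe that could be named. Hoxb13 and Hoxd13 were well above background in COS1NR alone, and Hoxa2 and Hoxb9 in MFH1NR alone. Cdkn2a, a classical Polycomb target that encodes a cyclin-dependent kinase inhibitor, had 1.24 in COS1NR and 3.82 in MFH1NR, and its neighbour Cdkn2b had 0.36 and 2.24.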
